A study of Lactuca sativa with 9 samples.

Results

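The genes described here belong to the synthesis of triterpenes and of the bitter sesquiterpene lactones of lettuce latex. They are 4 of the 38910 genes counted in the v5 gene set of *Lactuca sativa*. Of these, 3 are oxidosqualene cyclase genes whose closest *Arabidopsis thaliana* match is lupeol synthase 2: Lsat_1_v5_gn_1_74301 and Lsat_1_v5_gn_1_74321, which are neighbours on chromosome 1, and Lsat_1_v5_gn_7_28400 on chromosome 7. The remaining gene, Lsat_1_v5_gn_8_115261 on chromosome 8, is annotated as a germacrene A hydroxylase. Identifiers are given below without their shared beginning. All 4 were chosen by measured values, taken here to be those of ‘Okeechobee’ (LSL) against 60184 (SSL), so their values in that comparison are a description and carry no test. Whether the ‘Manatee’ (ISL) values also guided the choice is not known.

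The libraries were made from leaves of 3 romaine genotypes that differ in postharvest shelf-life: the cultivar ‘Okeechobee’ with a long shelf-life (LSL), the cultivar ‘Manatee’ with an intermediate one (ISL) and the experimental breeding line 60184 with a short one (SSL). Each genotype had 3 libraries, and all plants were grown in pots in a chamber with a 16 h day at 22 °C and were sampled at maturity from the first leaf that was fully expanded. Each shelf-life class is a single line, so shelf-life and every other difference between the lines cannot be told apart. The study calls the replicates biological, the labels give only replicate numbers, and p-values measure the spread between these libraries.

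Gene counts ranged between 24108451 and 32840811 reads per library. Reads outside annotated genes made up 5.24% to 12.0% of the total of gene counts, such reads and ambiguous reads. The highest values were in ‘Okeechobee’ replicates 1 and 3. Levels are given as CPM, read counts per unit of library size after TMM scaling, which compares one gene between libraries but not the abundance of different genes. The leaf genes for light harvesting proteins LHCA4 (9_27081) and CP24 (5_107040) were detected in every library. Their sum with LHCB2 (9_104740) was lower in the cultivars, at 132 to 429 CPM in ‘Okeechobee’ and 152 to 611 CPM in ‘Manatee’, against 1533 to 4224 CPM in 60184. In such whole-leaf RNA, fewer cells of a type and less RNA per cell cannot be told apart.

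Oxidosqualene cyclases fold 2,3-oxidosqualene into ring systems, either to cycloartenol, the precursor of plant sterols, or to triterpenes such as lupeol and the amyrins. Sesquiterpene lactones start from farnesyl diphosphate, which the mevalonate pathway also supplies for 2,3-oxidosqualene. Germacrene A synthase closes the ring, a cytochrome P450, germacrene A hydroxylase (also called germacrene A oxidase), oxidises the product to germacrene A acid, and costunolide synthase, another P450, forms the lactone. In lettuce these lactones are stored in the latex of laticifers and make the leaves bitter.

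The annotation does not settle the products of the 3 cyclases. The gene 1_74301 is described as a lanosterol, arabidiol or amyrin synthase relative and also as dammarenediol II synthase. The gene 1_74321 is described as dammarenediol II synthase, and 7_28400 as alpha-amyrin synthase. A further gene, 0_13160, has the same *A. thaliana* match, and 8_71901 is the gene described as lupeol synthase by name. The genes are therefore called oxidosqualene cyclases below. Reads were counted only where they mapped uniquely, so reads shared by near-identical copies were lost, and the split of reads between the neighbours 1_74301 and 1_74321 is uncertain.

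The chromosome 1 pair was expressed in 60184 and close to absent in both cultivars. For 1_74301, ‘Okeechobee’ had 0, 1 and 3 reads and ‘Manatee’ 0, 1 and 2 reads in the 3 replicates, against 2597, 3324 and 3343 reads in 60184. These are 0, 0.0349 and 0.117 CPM in ‘Okeechobee’, 0, 0.0353 and 0.0643 CPM in ‘Manatee’ and 86.5, 102.5 and 99.2 CPM in 60184. Every cultivar library was thus far below every 60184 library, with a coefficient of variation of 8.81% in 60184.

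Its neighbour 1_74321 showed the same on and off pattern at a lower count. It had 0, 2 and 4 reads in ‘Okeechobee’ and 0, 1 and 1 reads in ‘Manatee’, against 144, 259 and 233 reads in 60184, where its level was 4.79, 7.98 and 6.91 CPM. Within 60184 the 2 genes moved together in that replicate 1 was the lowest library for both, and 1_74301 had 18.0, 12.8 and 14.4 reads for each read of 1_74321 in the 3 replicates.

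Because the cultivars had so few reads, the ratio of summed reads, scaled to library size, is given with an exact 95% interval that covers counting error only. For 1_74301 the level was 2035-fold lower in ‘Okeechobee’ (interval 794 to 7469) and 2909-fold lower in ‘Manatee’ (995 to 14110) than in 60184. For 1_74321 it was 93.1-fold lower in ‘Okeechobee’ (42.6 to 255) and 299.5-fold lower in ‘Manatee’ (82.6 to 2479). Between the cultivars, the summed reads of 1_74301 were 4 in ‘Okeechobee’ and 3 in ‘Manatee’, a ratio of 1.43 (0.242 to 9.76), and those of 1_74321 were 6 and 2, a ratio of 3.22 (0.575 to 32.6). No difference between ‘Okeechobee’ and ‘Manatee’ was detectable at this depth for either gene. Whether the cultivars carry these genes in a form to which reads map was not tested.

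**Figure D1:**
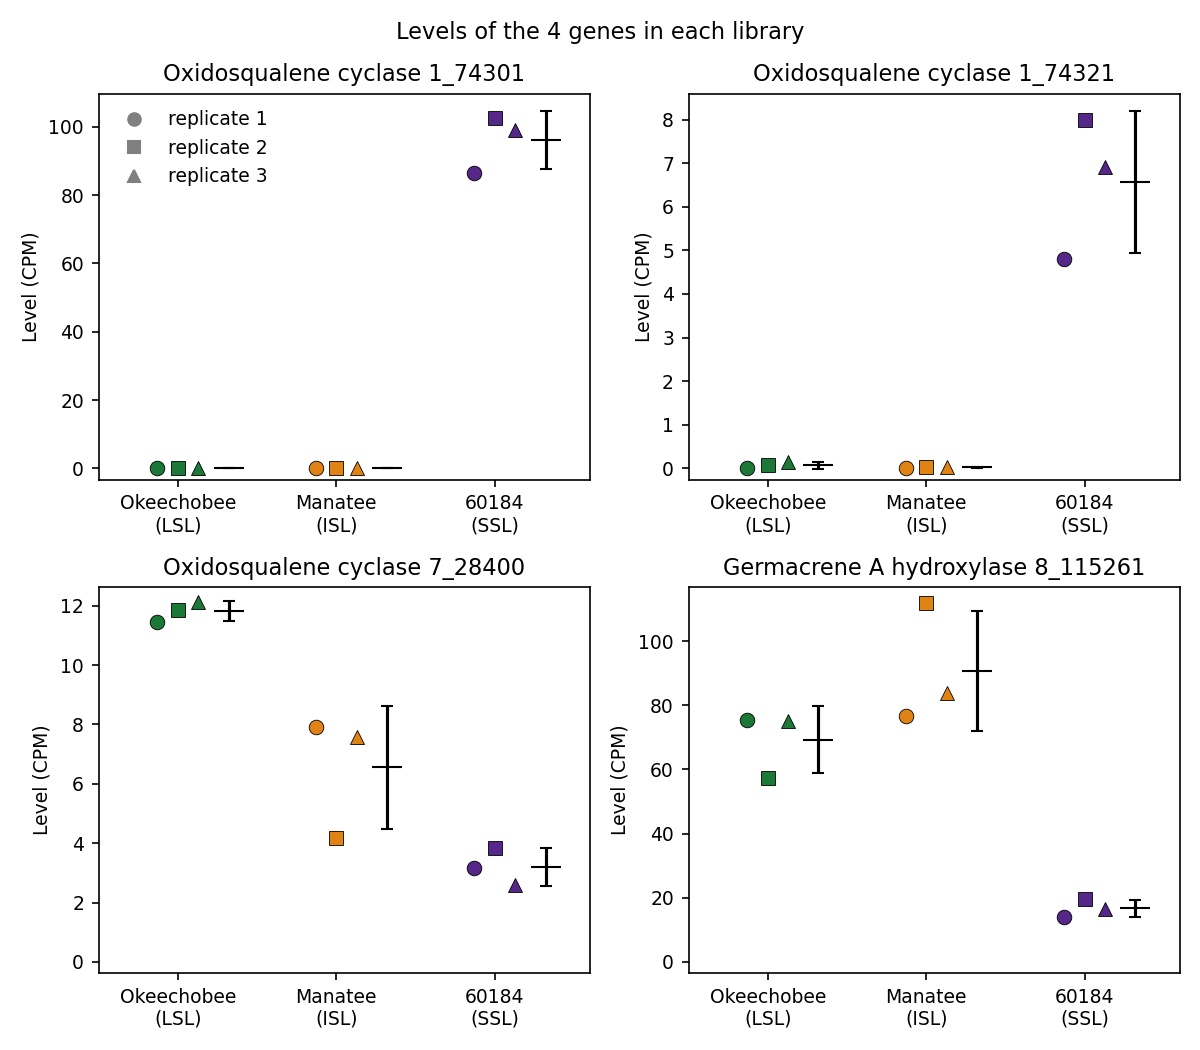
Levels of the 4 genes in CPM (vertical axes, linear) in each of the 9 libraries, by genotype, with circles, squares and triangles for replicates 1, 2 and 3 and the mean ± SD (n = 3) beside them. The chromosome 1 pair lies near 0 in ‘Okeechobee’ and ‘Manatee’, 7_28400 is highest in ‘Okeechobee’, and 8_115261 is lowest in 60184.

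The third cyclase, 7_28400, ran the other way and was graded over the 3 genotypes. Its level was 11.5, 11.9 and 12.1 CPM in ‘Okeechobee’, 7.92, 4.17 and 7.59 CPM in ‘Manatee’ and 3.16, 3.85 and 2.58 CPM in 60184. The libraries of the 3 genotypes did not overlap, although ‘Manatee’ replicate 2 came close to the highest 60184 library. ‘Okeechobee’ replicates were tight, with a mean of 11.8 ± 0.339 CPM (SD, n = 3), against 6.56 ± 2.08 CPM in ‘Manatee’ and 3.20 ± 0.637 CPM in 60184.

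The germacrene A hydroxylase gene 8_115261 was high in both cultivars. It measured 75.4, 57.2 and 75.2 CPM in ‘Okeechobee’ and 76.6, 112.0 and 83.8 CPM in ‘Manatee’, against 14.1, 19.6 and 16.4 CPM in 60184. The lowest cultivar library was thus well above the highest 60184 library. Every ‘Manatee’ library was above every ‘Okeechobee’ library, but the closest of them differed by little.

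In ‘Okeechobee’ against 60184, the comparison that chose the genes, the fitted log2 fold changes were -10.86 ± 0.39 for 1_74301, -6.43 ± 0.63 for 1_74321, 1.89 ± 0.20 for 7_28400 and 2.05 ± 0.17 for 8_115261 (standard error, edgeR). Over all 22113 genes tested in this comparison, 31.5% passed an adjusted p of 0.05, 16.2% higher and 15.3% lower in ‘Okeechobee’.

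‘Manatee’ did not enter that comparison, though it is set here against the same 60184 libraries, and its values were known when the genes were taken up. Its adjusted p-values for these genes are therefore not independent evidence. In ‘Manatee’ against 60184, 18.9% of 22062 genes passed (10.3% higher and 8.6% lower). The chromosome 1 genes met the filter on low counts through the 60184 libraries alone, so their log2 fold changes of -11.33 ± 0.33 for 1_74301 and -7.97 ± 0.54 for 1_74321 (standard error, edgeR) are a description with no test. The fitted size for such low counts depends on the model, and the count ratios above are the better guide to it. The hydroxylase gene 8_115261 was higher by 2.45 ± 0.20 on the log2 scale (edgeR, adjusted p = 0.000418).

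The call for 7_28400 in ‘Manatee’ was marginal. Its log2 fold change over 60184 was 1.04 ± 0.30 (edgeR, adjusted p = 0.0482), and the call was lost in 8 of 14 alternatives, with adjusted p between 0.00501 and 0.135. Among them was the omission of ‘Manatee’ replicate 1 (adjusted p = 0.118), ‘Manatee’ replicate 3 (0.119) or 60184 replicate 1, 2 or 3 (0.132, 0.0852 and 0.135). Without ‘Manatee’ replicate 2 the log2 fold change was 1.28 with an adjusted p of 0.00501 in edgeR.

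Between the cultivars, where 8.28% of 21937 genes passed (4.54% higher and 3.74% lower in ‘Okeechobee’), neither of the 2 genes that could be tested did. In ‘Okeechobee’ against ‘Manatee’ the log2 fold change was 0.87 ± 0.26 for 7_28400 (edgeR, adjusted p = 0.0881) and -0.36 ± 0.19 for 8_115261 (edgeR, adjusted p = 0.285). DESeq2 gave an adjusted p of 0.0255 for 7_28400. The chromosome 1 pair had too few reads in both cultivars to be tested.

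The cyclase reads were therefore spread over the genes differently in 60184 and in the cultivars. Of the reads of the 6 cyclase genes listed, 1_74301 took 44.8% ± 1.23 in 60184 (SD, n = 3) and 1_74321 3.04% ± 0.585. The share of 7_28400 was 9.95% ± 1.74 in ‘Okeechobee’ and 4.01% ± 1.69 in ‘Manatee’, against 1.50% ± 0.280 in 60184. In the cultivars the largest share fell to 8_71901, with 53.5% ± 18.4 in ‘Okeechobee’ and 74.5% ± 7.29 in ‘Manatee’, against 34.4% ± 1.36 in 60184. These are shares of reads, not corrected for gene length.

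Summed over all 6 cyclase genes, the level was 102 to 136 CPM in ‘Okeechobee’ and 154 to 202 CPM in ‘Manatee’, against 199 to 224 CPM in 60184. Without the chromosome 1 pair it was 102 to 136 CPM in ‘Okeechobee’ and 154 to 202 CPM in ‘Manatee’, against 108 to 114 CPM in 60184. The pair thus accounts for about as many reads in 60184 as the other 4 cyclase genes together, and without it the 60184 libraries fall inside the ‘Okeechobee’ range.

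**Figure D2:**
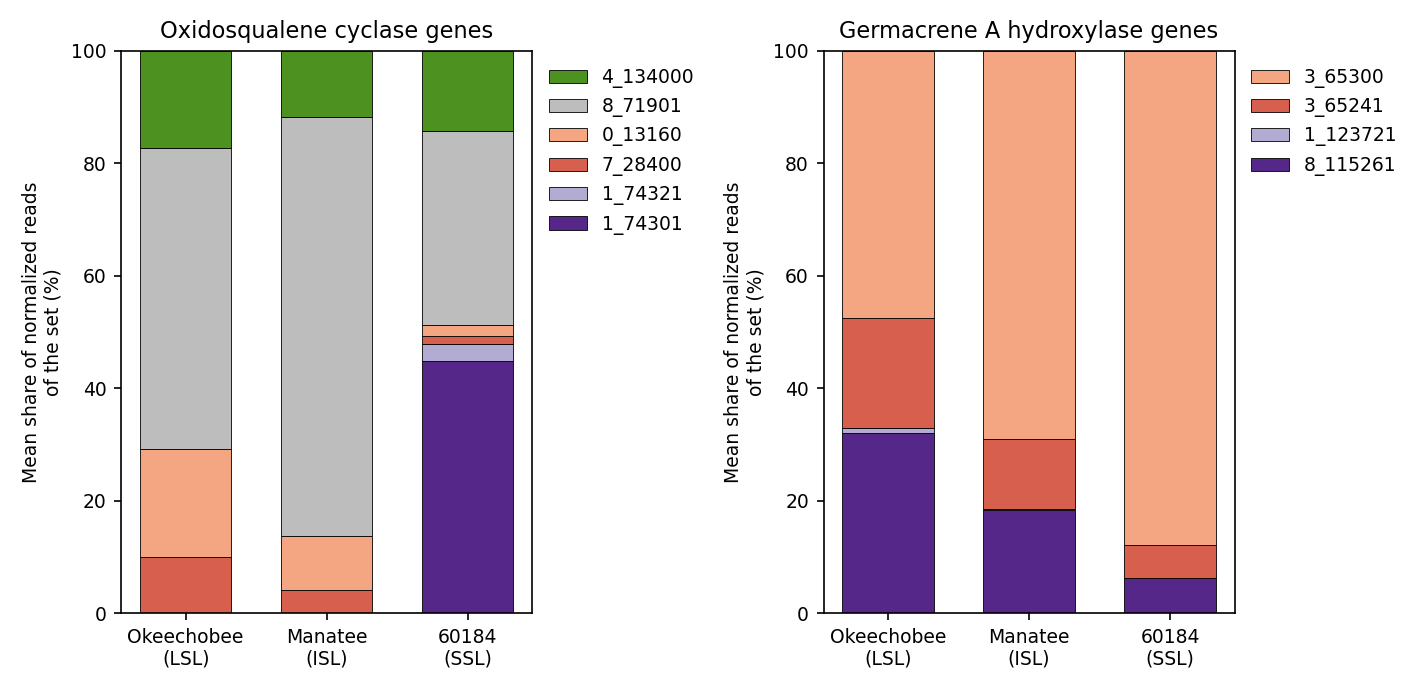
Mean share (%, n = 3 libraries) of the normalized reads of 6 oxidosqualene cyclase genes and of 4 germacrene A hydroxylase genes taken by each gene, stacked by genotype. In 60184, 1_74301 holds 44.8% of the cyclase reads, and 8_115261 holds 6.27% of the hydroxylase reads against 32.0% in ‘Okeechobee’ and 18.3% in ‘Manatee’.

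Among the other cyclases, 0_13160 was higher in both cultivars. It had 16.2, 19.98 and 30.1 CPM in ‘Okeechobee’ and 20.1, 12.7 and 15.4 CPM in ‘Manatee’, against 6.82, 3.05 and 2.25 CPM in 60184, with edgeR log2 fold changes of 2.45 ± 0.44 (adjusted p = 0.00541) and 2.01 ± 0.40 (adjusted p = 0.0159). Like 7_28400, this gene had no library in common with the 60184 range. The gene described as lupeol synthase, 8_71901, was higher in ‘Manatee’ than in 60184 (0.81 ± 0.20, edgeR adjusted p = 0.0304). In ‘Okeechobee’ its 95.5, 70.1 and 34.5 CPM spanned the 66.7, 75.9 and 78.7 CPM of 60184 (-0.14 ± 0.33, edgeR adjusted p = 0.77). The difference between ‘Okeechobee’ and ‘Manatee’ for this gene did not pass either (-0.92 ± 0.37, edgeR adjusted p = 0.173).

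Cycloartenol synthase (4_134000), the branch to sterols, was lower in ‘Manatee’ than in 60184 (-0.62 ± 0.12, edgeR adjusted p = 0.0156). In ‘Okeechobee’ its value was -0.60 ± 0.23 and did not pass (edgeR adjusted p = 0.0893). Downstream, the sterol C-methyltransferase gene 3_47540 was lower in both, by -1.49 ± 0.17 in ‘Okeechobee’ (edgeR adjusted p = 0.000765) and by -1.20 ± 0.18 in ‘Manatee’ (edgeR adjusted p = 0.00536).

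Values of triterpene-modifying P450 genes ran in both directions, though only the CYP72A gene below, higher in both cultivars, was tested. A CYP716A gene described as protopanaxadiol 6-hydroxylase, 5_81721, was lower in both cultivars, with 0.497, 0.139 and 0 CPM in ‘Okeechobee’ and 0.256, 0.247 and 0.193 CPM in ‘Manatee’, against 4.49, 3.58 and 3.59 CPM in 60184. Its log2 fold changes were -4.12 ± 0.78 and -4.03 ± 0.31 (standard error, edgeR). It met the filter on low counts through the 60184 libraries, so these values are a description with no test. Another gene with the same description, 5_81000, was higher in both cultivars, at levels of no more than 1.86 CPM. Its log2 fold changes were 3.37 ± 0.51 in ‘Okeechobee’ and 2.68 ± 0.49 in ‘Manatee’ (standard error, edgeR). As it met the filter through the cultivars alone, these values too are a description with no test. The CYP72A gene 2_71481, described as an 11-oxo-beta-amyrin oxidase, was also higher in both, by 1.35 ± 0.31 and 2.10 ± 0.56 (edgeR adjusted p = 0.0149 and 0.0405).

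The 4 germacrene A hydroxylase genes differed in which genotype they favoured. The gene 8_115261 held 32.0% ± 8.19 of their reads in ‘Okeechobee’ and 18.3% ± 1.41 in ‘Manatee’, against 6.27% ± 0.904 in 60184, while 3_65300 held 47.6% ± 9.08 and 68.9% ± 1.77, against 87.8% ± 1.41. The gene 3_65300 was lower in ‘Okeechobee’, with 104, 129 and 81.2 CPM, than in 60184, with 221, 232 and 247 CPM (-1.15 ± 0.19, edgeR adjusted p = 0.00351). It was the only hydroxylase gene that passed between the cultivars (-1.70 ± 0.27 in ‘Okeechobee’ against ‘Manatee’, edgeR adjusted p = 0.013), and its value in ‘Manatee’ against 60184 was 0.58 ± 0.21 (edgeR adjusted p = 0.0941). The gene 3_65241 was higher in both cultivars like 8_115261, by 1.52 ± 0.40 in ‘Okeechobee’ and 2.03 ± 0.28 in ‘Manatee’ (edgeR adjusted p = 0.0243 and 0.00421). The fourth gene, 1_123721, had 4.44, 0.662 and 1.33 CPM in ‘Okeechobee’ and 0.256, 1.31 and 0.322 CPM in ‘Manatee’, against 0, 0.123 and 0.0297 CPM in 60184. Its log2 fold change in ‘Okeechobee’ over 60184 was 5.27 ± 1.07 (standard error, edgeR). With 5 reads in all in 60184, it met the filter through ‘Okeechobee’ alone, so this value is a description with no test.

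The steps on either side of the hydroxylase were also higher in the cultivars. Germacrene A synthase 8_116421, which makes its substrate, had 3.94, 1.26 and 3.55 CPM in ‘Okeechobee’ and 9.33, 7.35 and 2.25 CPM in ‘Manatee’, against 0.366, 0.462 and 0.208 CPM in 60184. Its log2 fold changes were 3.07 ± 0.55 and 4.19 ± 0.61 (edgeR adjusted p = 0.00536 and 0.00478). Costunolide synthase 7_33721 was higher by 1.10 ± 0.15 in ‘Okeechobee’ and 1.25 ± 0.28 in ‘Manatee’ (edgeR adjusted p = 0.00192 and 0.024). A further gene of that description, 1_89521, measured at most 4.01 CPM in any library and had values of -1.02 and -1.03 that did not pass (edgeR adjusted p = 0.101 and 0.0911).

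Over the whole list of 28 other terpene genes, 18 were higher, 4 lower and 6 did not pass in ‘Okeechobee’ against 60184, with a median log2 fold change of 1.01 against 0.0066 over all genes. In ‘Manatee’ against 60184, 20 of the 27 tested were higher, 4 lower and 3 did not pass (median 1.11). Both comparisons use the same 60184 libraries. The count in ‘Manatee’ depended on them: 11 of the genes passed without 60184 replicate 1, 10 without replicate 2 and 12 without replicate 3, of which 7, 7 and 8 were higher. In ‘Okeechobee’ against ‘Manatee’ 2 of 26 were higher and 1 was lower. Over all genes, 16.2% were higher and 15.3% lower in ‘Okeechobee’ against 60184, and 10.3% and 8.6% in ‘Manatee’ against 60184. Between the cultivars 4.54% were higher and 3.74% lower. The 4 lower terpene genes in ‘Okeechobee’ against 60184 were thus close to the share over all genes. These counts include genes that met the filter on low counts through one side alone, whose calls are no test. Among the higher genes they are 5_81000 in both cultivars and 1_123721 in ‘Okeechobee’. Among the lower genes they are 5_81721 and 6_58961 in both cultivars. The list was also chosen with earlier results of these data known.

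Among the named genes, the ‘Manatee’ calls of 8_71901, 2_71481, 7_33721 and 5_2060 were lost whichever 60184 library was left out (edgeR adjusted p = 0.0569 to 0.132). Those of 0_13160 and 4_134000 were lost without 60184 replicate 2 (edgeR adjusted p = 0.0655 and 0.0687). In ‘Okeechobee’ against 60184, 3_65241 lost its call whichever 60184 library was left out (edgeR adjusted p = 0.0522 to 0.0923), and 2_71481 and 8_129360 without replicate 2 or 3 (0.0513 to 0.0608). Between the cultivars, 3_65300 lost its call without ‘Manatee’ replicate 3 (edgeR adjusted p = 0.0527) and 4_170740 without ‘Manatee’ replicate 1 or 3 (0.0794 and 0.0879).

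Of 10 genes of the mevalonate pathway, which feeds both branches, 7 were higher in ‘Okeechobee’ than in 60184 and 3 did not pass, where 16.2% of all genes were higher. In ‘Manatee’ 10 of the 10 were higher than in 60184, where 10.3% of all genes were. Between the cultivars the widest difference was that of the HMG-CoA reductase gene 1_11220, at -1.91 ± 0.58 in ‘Okeechobee’ against ‘Manatee’ (edgeR adjusted p = 0.0926, DESeq2 adjusted p = 0.00793). Of the 10 calls in ‘Manatee’, 8 were lost whichever 60184 library was left out. Farnesyl diphosphate synthase 5_2060, at the branch point to sesquiterpenes and triterpenes, was higher by 1.07 ± 0.16 in ‘Okeechobee’ and 1.11 ± 0.22 in ‘Manatee’ (edgeR adjusted p = 0.0025 and 0.015). HMG-CoA reductase, the committed step, has 3 genes here, of which 8_129360 was higher in both by 1.58 ± 0.36 and 1.82 ± 0.29 (edgeR adjusted p = 0.015 and 0.00754). In ‘Okeechobee’ against 60184, 1_11220 did not pass (0.10 ± 0.54, edgeR adjusted p = 0.906). Nor did 8_129040 (0.60 ± 0.26, edgeR adjusted p = 0.115), which had the most reads of the mevalonate list, with means of 1684 and 1110 CPM.

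Of the 5 other terpene synthase genes, one resembled the chromosome 1 pair. Germacrene D synthase 6_58961 had no read in any ‘Okeechobee’ or ‘Manatee’ library, against 98 reads in the 60184 libraries, and was at least 28.7-fold lower in ‘Okeechobee’ and at least 30.8-fold lower in ‘Manatee’, with 3 counts per genotype as the floor. The terpene synthase genes 8_143701, described as alpha-terpineol synthase, and 4_170740, described as nerolidol synthase, were the genes higher in ‘Okeechobee’ than in ‘Manatee’, by 2.49 ± 0.26 and 3.04 ± 0.55 (edgeR adjusted p = 0.0032 and 0.0208).

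**Figure D3:**
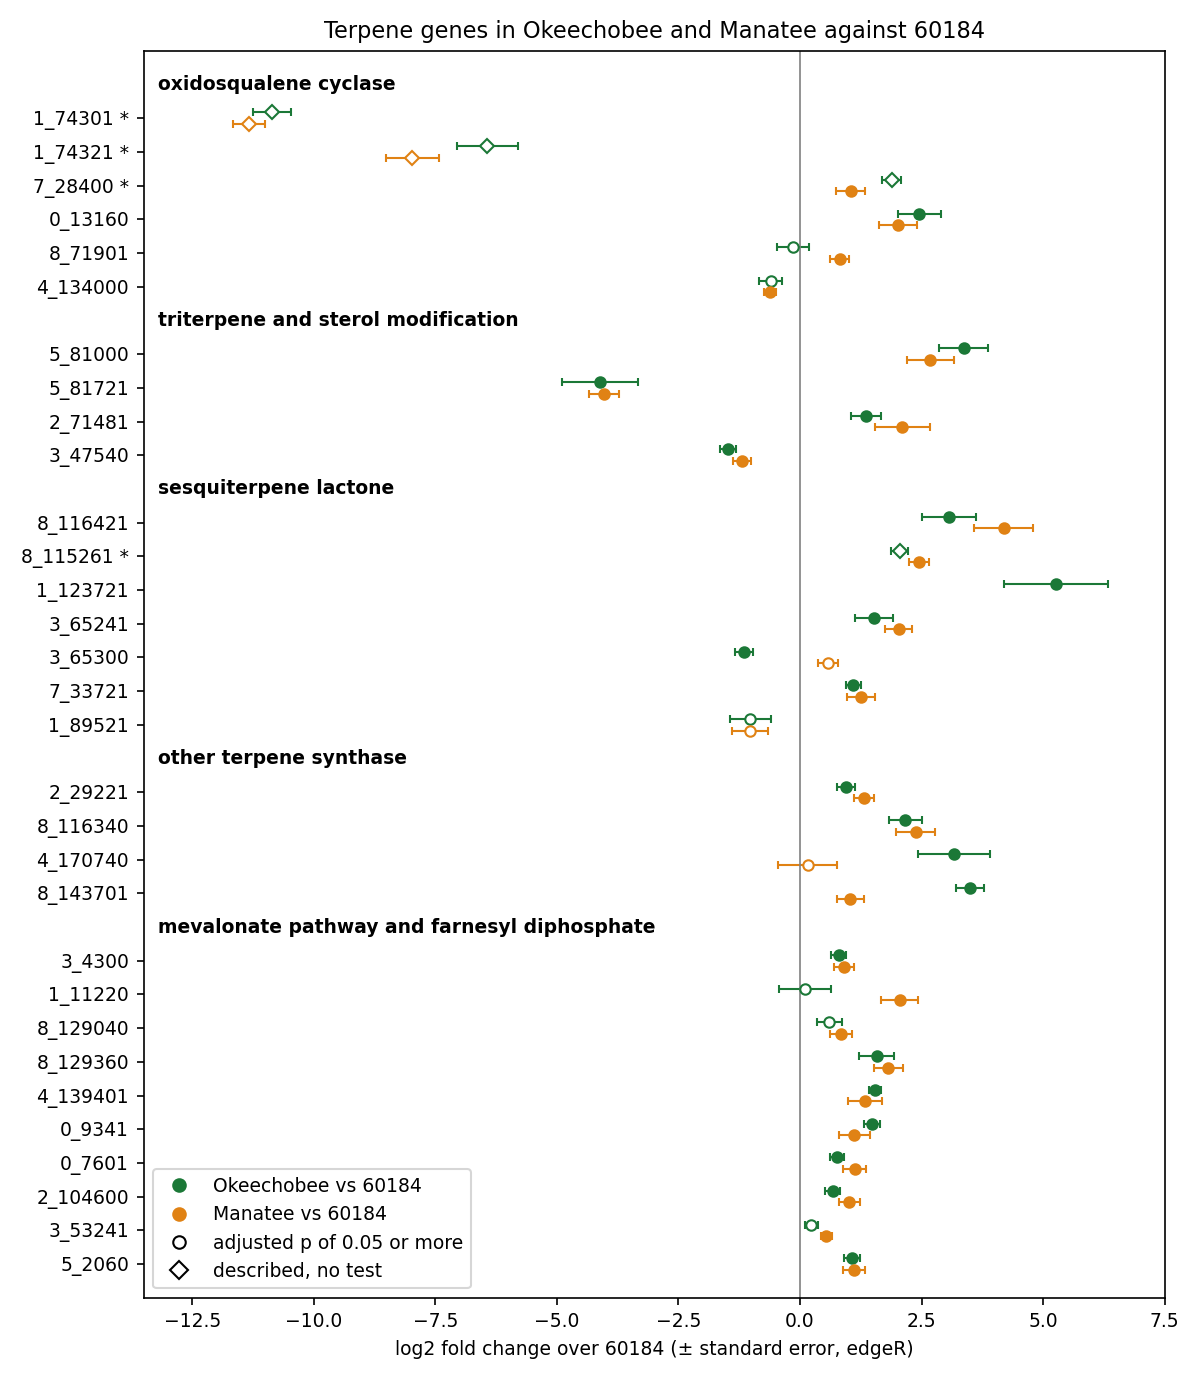
Log2 fold change ± standard error over 60184 of the terpene genes in ‘Okeechobee’ (green) and ‘Manatee’ (orange), by list, with filled circles where the edgeR adjusted p was under 0.05. Open diamonds mark values of the 4 genes (asterisks) given with no test: all of them in ‘Okeechobee’ and the chromosome 1 pair in ‘Manatee’. The filled circles of 5_81000 and 5_81721 in both cultivars and of 1_123721 in ‘Okeechobee’ are likewise descriptions with no test. The chromosome 1 pair lies far to the left, and 7 mevalonate pathway genes in ‘Okeechobee’ and 10 in ‘Manatee’ lie to the right with filled circles; 6_58961, with no read in either cultivar, is not drawn, nor is 1_123721 in ‘Manatee’, which was not tested.

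Of 7 genes of rubber synthesis and rubber particles, used as laticifer markers, 5 were higher and 1 lower in each cultivar than in 60184, beside 16.2% of all genes higher in ‘Okeechobee’ and 10.3% in ‘Manatee’. The lower one was 5_153081, a polyprenyl diphosphate synthase gene, at -2.90 ± 0.16 in ‘Okeechobee’ and -2.30 ± 0.18 in ‘Manatee’ (edgeR adjusted p = 6.83e-05 and 0.000355). Those that did not pass were 8_147461 in ‘Okeechobee’ (0.65 ± 0.29, edgeR adjusted p = 0.127) and 9_87901 in ‘Manatee’ (-0.43 ± 0.50, edgeR adjusted p = 0.565). The summed level of the 7 was 431 to 758 CPM in ‘Okeechobee’ and 367 to 621 CPM in ‘Manatee’, against 202 to 207 CPM in 60184. Most of it came from the rubber elongation factor gene 9_87820, with a mean of 399 CPM in ‘Okeechobee’ and 297 CPM in ‘Manatee’, against 127 CPM in 60184. None of the 7 was at 0 in any genotype. The part of laticifer content, or of the lower light harvesting levels given above, in the difference of 8_115261 was not tested.

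‘Manatee’ replicate 2 stood apart within its genotype for these genes. It had the highest ‘Manatee’ level of all 10 mevalonate pathway genes and of 5 of the 7 sesquiterpene lactone genes, 8_115261 included, and the lowest level of 7_28400. Its light harvesting sum was 152 CPM, the lowest of the 3. Without it, the direction of each of the 4 genes against 60184 was the same, and the summed level of the 3 light harvesting genes in the remaining ‘Manatee’ libraries was 519 and 611 CPM. The trait was not particular to ‘Manatee’. In ‘Okeechobee’, replicate 1 was highest for 8 of the 10 mevalonate pathway genes and 5 of the 7 sesquiterpene lactone genes. It also had the lowest ‘Okeechobee’ light harvesting sum, 132 CPM. The 60184 libraries differed from this. There, replicate 1 was highest for 7 of the 10 mevalonate pathway genes but for 0 of the 7 sesquiterpene lactone genes. That library was also the highest of 60184 for all 3 light harvesting genes, with a sum of 4224 CPM.

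**Figure D4:**
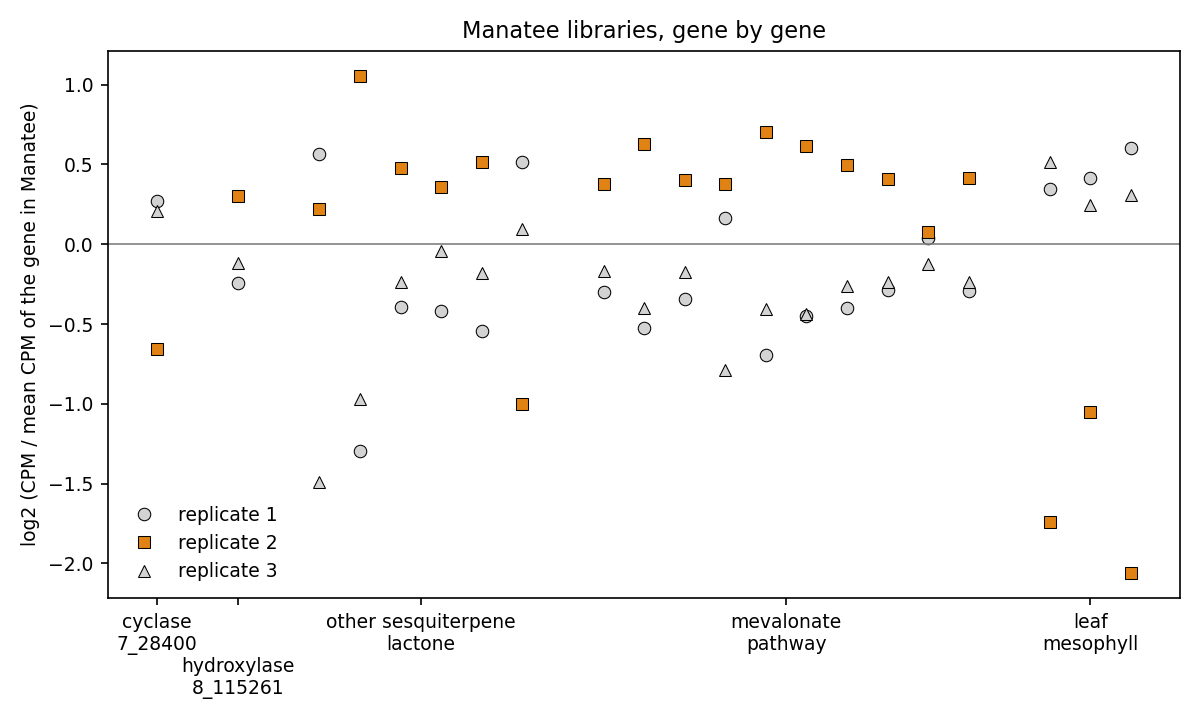
Log2 ratio of each ‘Manatee’ library to the gene’s mean in ‘Manatee’ for 7_28400, 8_115261 and the genes of 3 lists, one column of points per gene, with replicate 2 in orange. Replicate 2 is highest for 8_115261 and all 10 mevalonate pathway genes and lowest for 7_28400 and the 3 light harvesting genes.

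In the order of gene numbers on chromosome 1, the gene before 1_74301, 1_74260, had 37.6, 33.6 and 27.0 CPM in ‘Okeechobee’ and 33.1, 40.3 and 32.3 CPM in ‘Manatee’, against 29.2, 31.2 and 32.7 CPM in 60184. Within 10 places of 1_74301, 7 of 19 flanking genes had no read in any library. A further 9 could be tested in each comparison with 60184, and their log2 fold changes lay between -0.80 and 1.24 in ‘Okeechobee’ and between -0.25 and 0.88 in ‘Manatee’. Of these only 1_74601 in ‘Okeechobee’ passed (-0.80, edgeR adjusted p = 0.00784). One place further, within 10 places of 1_74321, 1_74661 was lower in both cultivars, with 5.50, 5.40 and 4.37 CPM in ‘Okeechobee’ and 6.99, 7.31 and 6.98 CPM in ‘Manatee’, against 8.89, 13.3 and 14.1 CPM in 60184. Its log2 fold changes were -1.25 and -0.76 (edgeR adjusted p = 0.00511 and 0.0425), and the ‘Manatee’ call was lost without ‘Manatee’ replicate 1 or 3 or 60184 replicate 2 or 3 (edgeR adjusted p = 0.0923 to 0.144).

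The gene after the pair, 1_74341, singled out after its values were seen, had the reverse pattern at a low level. It had 27, 14 and 9 reads in ‘Okeechobee’ and 17, 9 and 19 reads in ‘Manatee’, against 0 in each 60184 library, and was at least 19.0-fold higher in ‘Okeechobee’ and at least 15.9-fold higher in ‘Manatee’. The pair, itself chosen by measured values, was thus high in 60184, and the gene after it had reads only in the cultivars.

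Genes with a mean of at least 100 reads in 60184 and at most 10 reads over the 3 libraries of each cultivar numbered 58 of 16733, or 0.347%, with the pair among them. On chromosome 1 there were 5, and the nearest of the other 3 lay 186 places from the pair. Chromosome 5 held 17 of the 58, among 2323 genes that reached this level in 60184.

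Next to 7_28400, the expressed gene 7_28281 had log2 fold changes of 0.13 in ‘Okeechobee’ and 0.34 in ‘Manatee’ over 60184, and neither passed (edgeR adjusted p = 0.499 and 0.0936). The gene 7_28481, 3 places away, was lower in ‘Okeechobee’ (-0.72, edgeR adjusted p = 0.027), a call lost without any 1 library other than ‘Okeechobee’ replicate 3 (edgeR adjusted p = 0.0505 to 0.0791), and had -0.41 in ‘Manatee’ (edgeR adjusted p = 0.145). Further out, 7_28101, a TIFY 5A gene of the jasmonate repressor family matched to JAZ8, was higher by 6.34 in ‘Okeechobee’ (edgeR adjusted p = 0.000612) and 4.92 in ‘Manatee’ (edgeR adjusted p = 0.0277). It had 45.4, 23.1 and 17.6 CPM in ‘Okeechobee’ and 3.59, 26.0 and 2.35 CPM in ‘Manatee’, against 0.333, 0.0617 and 0.653 CPM in 60184. Thus ‘Manatee’ replicate 2 again stood apart, and ‘Okeechobee’ replicate 1 was again the highest of its genotype for this TIFY 5A gene. The call of 7_28101 in ‘Manatee’ was lost without any one of the 60184 libraries (edgeR adjusted p = 0.065 to 0.104).

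Next to 8_115261, the expressed genes 8_115241 and 8_115201 had log2 fold changes of 0.26 and -0.13 in ‘Okeechobee’ and 0.35 and 0.15 in ‘Manatee’, none of which passed (edgeR adjusted p of 0.0894 or more). A strictosidine synthase-related gene 6 places away, 8_115061, was higher in both cultivars, by 0.94 and 1.74 (edgeR adjusted p = 0.0112 and 0.0207), and its ‘Manatee’ call was likewise lost without any one of the 60184 libraries (edgeR adjusted p = 0.053 to 0.0756). Of the other expressed flanks, 8_114961 was higher in ‘Okeechobee’ (1.80, edgeR adjusted p = 0.00136) and had -0.24 in ‘Manatee’ (edgeR adjusted p = 0.567). The gene 8_115161 was lower in ‘Okeechobee’ (-1.57, edgeR adjusted p = 0.0186) and higher in ‘Manatee’ (0.93, edgeR adjusted p = 0.0225), and both calls were lost without any one of the 60184 libraries (edgeR adjusted p = 0.0502 to 0.0865), the ‘Manatee’ call also without ‘Manatee’ replicate 3 (0.0663). Of the flanks with fewer reads, 8_115181 was higher in ‘Manatee’ (1.39, edgeR adjusted p = 0.0482) and 7_28721, near 7_28400, in ‘Okeechobee’ (2.66, edgeR adjusted p = 0.00266).

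**Figure D5:**
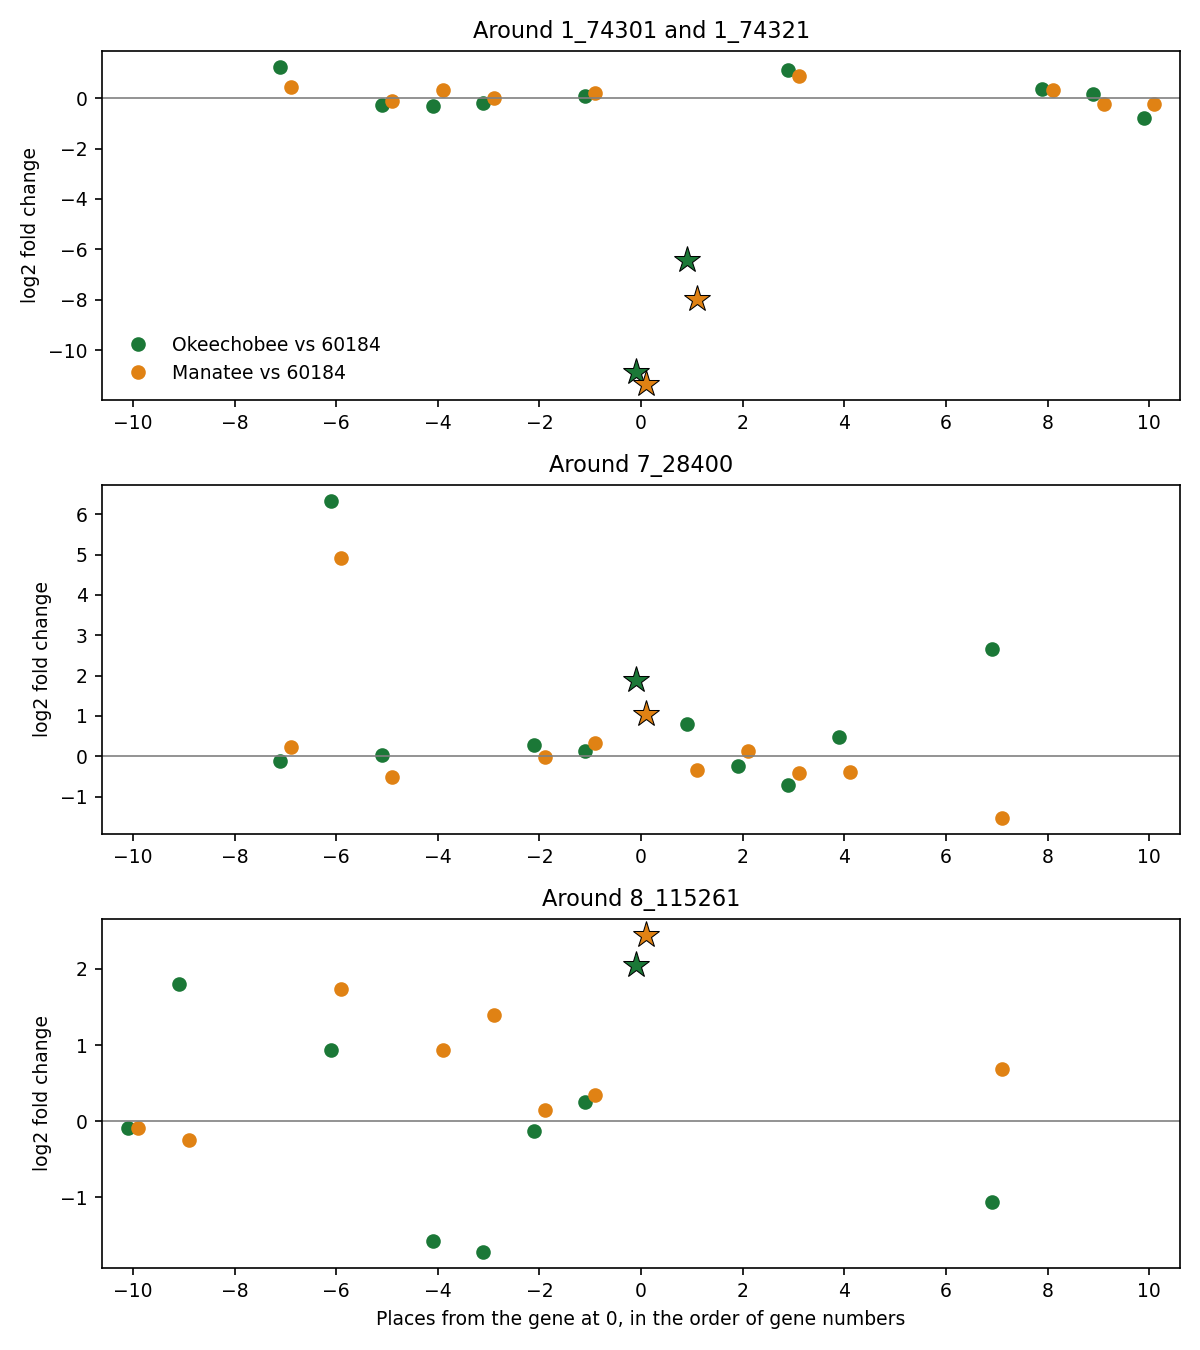
Log2 fold change over 60184 of the genes tested within 10 places on each side of 1_74301, 7_28400 and 8_115261, in the order of gene numbers, in ‘Okeechobee’ (green) and ‘Manatee’ (orange), with stars for the 4 genes and circles for their flanks. The flanks within 10 places of 1_74301, its pair gene aside, lie between -0.80 and 1.24, and the highest flank of 7_28400 is the TIFY 5A gene at 6.34.

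The genes most like each of the 4 over the 9 libraries were found by the root mean square difference of log2 CPM after centring each gene. For 1_74301 this was 5_118480, without a description, at 0.439 against a median of 4.68 over all genes, with 61.9 to 71.2 CPM in 60184 and at most 1 read in any cultivar library. For 1_74321 it was 5_166101 at 0.321 (median 2.87). For 7_28400 it was 9_92240, described as a P450 of the CYP96A family, at 0.199 (median 0.909), with 24.6, 23.0 and 39.8 CPM in ‘Okeechobee’ and 18.5, 9.33 and 18.7 CPM in ‘Manatee’, against 8.29, 9.90 and 6.59 CPM in 60184. For 8_115261 it was 4_164920, described as a PLC-like phosphodiesterase, at 0.216 (median 1.16). None of these 4 was in the terpene lists.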

How the data were processed

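The authors trimmed the reads of the 9 poly(A) leaf libraries (Cutadapt), aligned them to the v5 assembly (STAR), removed PCR duplicates and counted uniquely mapped reads per gene (HTSeq, SAMtools and in-house code). The deposited values are raw counts per gene without normalization. Summary lines (ambiguous reads, reads outside genes or mapped more than once) were kept out of library sizes.

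For each pair of genotypes, a gene entered the fit if it had 10 counts or more in 3 libraries, or in 2 where a replicate was left out. TMM scaling and edgeR 4.0.16 in R 4.3.3 (robust quasi-likelihood F test) were used, with Benjamini-Hochberg adjustment over all tested genes, and a call needed an adjusted p under 0.05. The code was tested on simulated data. The likeness measure used a prior count of 2.

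The genes and lists, built from words in the gene descriptions, were chosen with earlier results of these data known. The text names these genes, expressed flanking genes within 10 places, the genes most like each, and 1_74341. Sensitivity was examined with DESeq2 1.42.0 and its size factors, other scalings and filters (none, or 1 CPM in 3 libraries), a model of all 9 libraries, a replicate block, each replicate left out, and thresholds on the log2 fold change (2) and the mean count (100). No sequence was used here.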

Additional observations from a re-analysis of the deposited data

How the results depend on the processing

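With 3 libraries a genotype, the direction of each of the 4 genes held in every alternative that gave a value, and 8_115261 stayed called in ‘Manatee’ against 60184 in all of them. Without ‘Okeechobee’ replicate 3, which held most of the few ‘Okeechobee’ reads of the pair, the fitted log2 fold changes over 60184 were -12.16 for 1_74301 and -7.43 for 1_74321. Thresholds of 2 on the log2 fold change and 100 on the mean count reduced the genes called against 60184 to 1025 in ‘Okeechobee’ and 718 in ‘Manatee’, in place of 6969 and 4176, and those between the cultivars to 408, in place of 1817. Of the terpene genes 5 and 7 then passed against 60184, in place of 22 and 24. In ‘Okeechobee’ against ‘Manatee’ DESeq2 called 3654 genes and the model of all 9 libraries 3129.

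With 1 replicate left out, ‘Okeechobee’ against 60184 gave 4459 to 7140 genes called (the fewest without 60184 replicate 2), ‘Manatee’ against 60184 gave 1751 to 4779 genes and 10 to 24 terpene genes, and ‘Okeechobee’ against ‘Manatee’ gave 627 to 2365 genes and 1 to 5 terpene genes. Uncalled values that changed sign were 8_71901 (-0.49 to 0.17) and 1_11220 (-0.48 to 0.52) in ‘Okeechobee’ and 4_170740 (-0.25 to 1.14, negative without 60184 replicate 1 or 2) in ‘Manatee’, each against 60184. The cause was not tested.

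Replicate numbers did not pair the libraries: correlations of same-numbered deviations ran between -0.303 and 0.277. With a replicate block 2320 genes and 15 terpene genes were called in ‘Manatee’ against 60184 and 596 genes in ‘Okeechobee’ against ‘Manatee’. For 7_28400 in ‘Manatee’ the block gave an adjusted p of 0.123 in edgeR, and 1_11220 had -0.11 in ‘Okeechobee’ against 60184 (adjusted p = 0.849). At 0 to 4 reads a library, the depth does not tell the cultivars apart for the chromosome 1 pair.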
